A study of Mus musculus with 7 samples.

Results

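The comparison of diabetes-exposed embryos that had no neural tube defect (NTD) with control embryos covered 5 of the 7 arrays of the series, 3 exposed embryos and 2 controls. All were whole FVB mouse embryos at E10.5, with the RNA of 1 embryo on each Affymetrix 430A 2.0 array. The exposed embryos came from 1 dam made diabetic before mating by intraperitoneal injections of streptozotocin (STZ), a toxin of insulin-producing beta cells, and the controls came from 1 untreated dam. Maternal diabetes and litter therefore cannot be told apart, and p-values measure only the spread among embryos of the same litter. No malformation was recorded in these 3 exposed embryos. They are called exposed embryos 1, 2 and 3, and the other 2 exposed embryos, littermates with an NTD, are called NTD embryos 1 and 2. The NTD embryos entered no test in this comparison, and their values stand beside the others for reference. The deposited value is a signal, a linear intensity that MAS5 gives for each probe set from its probes, as the authors ran it. The median signal was 206 to 218 on the 7 arrays. Of 22690 probe sets, the 14554 whose signal reached the 40th percentile of its array on at least 2 of the 7 arrays entered a limma fit of log2 signals. A called probe set is one whose adjusted p, by the method of Benjamini and Hochberg, was under 0.05. An exact permutation test of 2 against 3 embryos has 10 splits and cannot give a p below 0.1. The number of arrays limits the precision.

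Diabetic pregnancy exposes the embryo to high glucose. At this stage the heart has begun to beat, primitive red blood cells from the yolk sac circulate and neurons form in the neural tube. Embryonic cells rely heavily on glycolysis, and the HIF transcription factors raise glycolytic enzymes, glucose transporters and lactate exporters when oxygen is low. Metallothioneins bind zinc and copper and are induced by metals, glucocorticoids and oxidative stress. The visceral endoderm of the yolk sac makes serum proteins that the fetal liver makes later. The yolk sac surrounds the embryo until it is dissected away.

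The letters upstream of 3 of the genes described here are shown because 1 is a called metallothionein gene, 1 a called lactate exporter gene and 1 a hypoxia effector with a high signal in all 3 exposed embryos. Each run of RefSeq sequence on GRCm38.p6 reaches from 250 bases before to 50 bases after the start of the gene, 5′ to 3′ on the strand of the gene. Capitals mark matches on either strand to the core of the metal response element, TGCACNC or TGCGCNC, in Mt2 at chr8:94172368-94172667 on the + strand, and to the core of the hypoxia response element, ACGTG or GCGTG, in Slc16a3 at chr11:120948817-120949116 on the + strand and Bnip3 at chr7:138909457-138909756 on the - strand.
Mt2: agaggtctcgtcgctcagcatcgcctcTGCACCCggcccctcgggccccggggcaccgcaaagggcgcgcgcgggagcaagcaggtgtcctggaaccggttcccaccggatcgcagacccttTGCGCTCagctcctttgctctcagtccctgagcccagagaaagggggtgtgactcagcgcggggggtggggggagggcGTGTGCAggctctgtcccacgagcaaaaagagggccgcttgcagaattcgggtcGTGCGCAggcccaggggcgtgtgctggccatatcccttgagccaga
Slc16a3: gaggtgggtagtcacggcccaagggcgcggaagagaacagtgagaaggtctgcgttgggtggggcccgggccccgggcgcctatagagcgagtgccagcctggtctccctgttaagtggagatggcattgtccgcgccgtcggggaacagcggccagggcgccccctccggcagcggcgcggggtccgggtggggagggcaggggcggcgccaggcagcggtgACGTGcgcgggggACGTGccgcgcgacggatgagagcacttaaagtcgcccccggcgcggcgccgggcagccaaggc
Bnip3: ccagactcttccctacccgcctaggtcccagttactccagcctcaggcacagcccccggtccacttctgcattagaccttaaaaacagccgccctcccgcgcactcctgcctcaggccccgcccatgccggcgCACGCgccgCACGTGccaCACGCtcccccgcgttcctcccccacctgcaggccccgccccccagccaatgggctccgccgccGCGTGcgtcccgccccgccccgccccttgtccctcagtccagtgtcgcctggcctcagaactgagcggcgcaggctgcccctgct

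The Mt2 sequence held 4 matches to the metal response element core, which 2922 of the 7029 tested genes with a promoter in the table (41.6%) also held. The hypoxia response element core matched 2 times in Slc16a3 and 5 times in Bnip3, where some matches overlap, and it was present in 68.4% of all these genes. Among the gene lists described here, it was present in 24 of 26 hypoxia effectors outside glycolysis, 18 of 21 glycolysis genes and 5 of 6 glucose and lactate transporters. It was also in 13 of 23 genes of neuronal differentiation, 8 of 13 of heme synthesis and 3 of 13 of primitive red blood cells. The metal response element core had a similar order. It was in 14 of the 26 hypoxia effectors, 13 of the 21 glycolysis genes and 4 of the 6 transporters. In neuronal differentiation, heme synthesis and primitive red blood cells it was in 9 of 23, 4 of 13 and 2 of 13. These are descriptions of letters and not of bound sites.

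With all 3 exposed embryos, 24 probe sets were called, which is 0.165% of those tested. Of these, 10 were higher in the exposed embryos (0.0687%) and 14 were lower (0.0962%). All 24 had every exposed embryo on one side of both controls, as did 17.3% of all tested probe sets above the controls and 18.4% below them. An unadjusted p under 0.05 was found for 999 probe sets that were higher (6.86%) and 1172 that were lower (8.05%). Mean signals differed by more than 2-fold upward for 147 probe sets (1.01%) and downward for 181 (1.24%). Without exposed embryo 1, whose yolk sac transcripts are described further on, 6 probe sets were called (0.0412%). They were all among the 24, and no probe set was called without this embryo only. The 18 that were lost kept their direction, with an adjusted p of 0.0816 to 0.207. Other single embryos moved the count as much, since 2 probe sets were called without exposed embryo 3, 67 without exposed embryo 2, 5 without control 1 and 3 without control 2. With quantile normalization 5 probe sets were called higher and 3 lower, so that 37.5% of calls were lower in place of 58.3%.

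**Figure D1:**
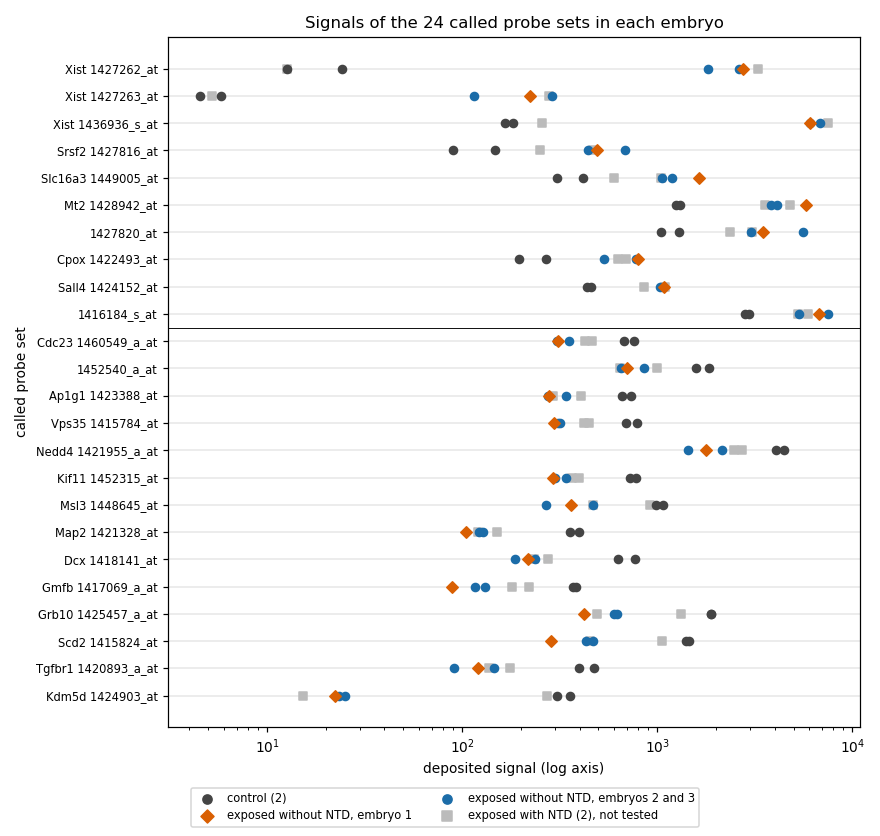
Deposited signals (log axis) of the 24 called probe sets in each of the 7 embryos, with those higher in the exposed embryos above the line and those lower below it. In every row the exposed embryos without NTD lie apart from both controls. The squares of the NTD embryos, which were not tested, lie closer to the exposed mean than to the control mean in most rows. These are 20 of the 24 for NTD embryo 1 and 19 for NTD embryo 2.

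The groups also differed in transcripts of the sex chromosomes, and 6 of the 24 called probe sets were on chromosome X or Y. The 3 tested probe sets of Xist, the RNA that coats the inactive X chromosome, were called higher. The brightest read 181 and 165 in the controls and 6074, 6840.2 and 6098 in exposed embryos 1, 2 and 3, a log2 fold change of 5.19 (SE 0.15, adjusted p = 5.33e-07). The Y-linked histone demethylase gene Kdm5d read 307 and 358 in the controls and 22.4, 23.4 and 25.0 in the exposed embryos, and fell by 3.81 on the log2 scale (SE 0.48, adjusted p = 0.027). Eif2s3y and Uty, also on the Y chromosome, were at 227 and 203 and at 282 and 313 in the controls, against 0.549, 0.689 and 2.76 and against 58.6, 30.1 and 61.3. Every exposed embryo without NTD thus had high Xist and low Y-linked signals, and both controls the reverse. NTD embryo 2 read 256 for Xist and 273 for Kdm5d, near the controls, and NTD embryo 1 read 7533 and 15.3. In a fit of all 7 arrays in 3 groups, where these embryos lend their spread, the adjusted p was 0.0676 for this Xist probe set and 0.112 for Kdm5d, and over all alternative settings the values ran from 1.02e-09 to 0.0676 and from 0.000312 to 0.443. No source used here gives the sex of the embryos. In this comparison the sex-chromosome pattern and exposure cannot be told apart, for genes of any chromosome. Beside it, NTD embryo 2 lay closer to the exposed mean than to the control mean for 19 of the 24 called probe sets. Its exceptions were the 3 of Xist, that of Kdm5d and that of the X-linked gene Msl3. NTD embryo 1 lay closer to the exposed mean for 20. The part of the sex-chromosome pattern in the other calls was not tested.

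Msl3, an X-linked gene of the MSL chromatin complex, was 1075 and 990.4 in the controls and 360, 467 and 269 in the exposed embryos (log2 fold change -1.53, SE 0.23, adjusted p = 0.0495, and 0.118 without exposed embryo 1). NTD embryo 2 was at 921, near the controls as for Xist, and NTD embryo 1 at 467. The adjusted p of Msl3 ran from 0.0109 to 0.319 over 18 alternative settings. Kdm5c, an X-linked partner of Kdm5d that escapes X inactivation, read 217 and 141 in the controls and 459, 358 and 444 in the exposed embryos, and was not called. Over the X chromosome as a whole, the median log2 fold change of 271 genes, each taken by its brightest probe set, was 0.01, and over 8369 autosomal genes it was 0.04. When all probe sets of chromosomes X and Y were left out, 6 probe sets were called, 4 higher and 2 lower.

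Mt2, a metallothionein gene, was the called autosomal gene of smallest adjusted p. Its signal was 1251 and 1301 in the controls and 5776, 4116 and 3811 in exposed embryos 1, 2 and 3, a log2 fold change of 1.82 (SE 0.19, adjusted p = 0.0196). Every exposed embryo lay well above both controls, the mean signals differed by 3.58-fold, and without exposed embryo 1 the log2 fold change was 1.63 (adjusted p = 0.0178). The adjusted p of Mt2 ran from 0.000304 to 0.0866 over 19 alternative settings and passed the threshold in 16. Mt1, its neighbour on chromosome 8, was 1178 and 963 in the controls and 5092, 2500.3 and 3114 in the exposed embryos (log2 fold change 1.68, adjusted p = 0.0572, not called). The NTD embryos stood at 3556 and 4767 for Mt2. The other metallothionein and antioxidant genes lay closer to 0. Of these, Mgst3 and Gpx3 had log2 fold changes of 1.01 and 0.98 (adjusted p = 0.108 and 0.181, not called). In both, all 3 exposed embryos lay above both controls. Of the 35 tested genes on the list, 7, with Mt1 and Mt2 among them, had an unadjusted p under 0.05 upward and 1 downward. The median log2 fold change of the list was 0.12.

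Slc16a3 exports lactate from glycolytic cells. It read 418 and 306 in the controls and 1640, 1059 and 1187 in the exposed embryos, a log2 fold change of 1.83 (SE 0.23, adjusted p = 0.027). Without exposed embryo 1 the log2 fold change was 1.65 (adjusted p = 0.0816), so the size stayed similar and the call was lost. Cpox, an enzyme of heme synthesis, read 270 and 195 in the controls and 797, 532 and 779 in the exposed embryos (log2 fold change 1.59, SE 0.23, adjusted p = 0.0449, and 0.118 without exposed embryo 1). Sall4, a zinc finger factor of stem cells and early limb and heart, was even among embryos, with 437 and 455 against 1081, 1073 and 1038 (log2 fold change 1.25, SE 0.15, adjusted p = 0.027). It was not called without exposed embryo 1 (adjusted p = 0.0816), although the log2 fold change was then 1.24. Over 19 alternative settings the adjusted p ran from 0.000849 to 0.18 for Slc16a3, from 0.00672 to 0.304 for Cpox and from 0.00872 to 0.243 for Sall4.

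The other 3 called probe sets that were higher are harder to read as genes. One probe set of the splicing factor gene Srsf2 read 148 and 89.8 in the controls and 489, 686 and 440 in the exposed embryos (log2 fold change 2.19), while the 3 other tested probe sets of Srsf2 had log2 fold changes of -0.57, -0.35 and -0.32. The last pair of probe sets have no symbol in the annotation used, and their log2 fold changes were 1.75 and 1.16. All 3 lost their call without exposed embryo 1.

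Of the 14 called probe sets that were lower, Grb10, Scd2 and Kdm5d were also called without exposed embryo 1. Grb10, an imprinted adaptor that restrains insulin and growth factor receptors, was 1895 and 1879 in the controls and 423, 623 and 602 in the exposed embryos (log2 fold change -1.80, SE 0.20, adjusted p = 0.0223, and 0.0279 without exposed embryo 1). Scd2, a fatty acid desaturase of the developing brain and skin, was 1397 and 1452 in the controls and 285, 430 and 471 in the exposed embryos (log2 fold change -1.88, SE 0.22, adjusted p = 0.027, and 0.0285 without exposed embryo 1). NTD embryo 1 stood between the groups for both probe sets, at 1329.5 for Grb10 and 1056 for Scd2, and NTD embryo 2 was at 494 and 454, within the range of the exposed embryos without NTD. Over 19 alternative settings the adjusted p ran from 0.001 to 0.112 for Grb10 and from 0.000849 to 0.135 for Scd2.

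The brightest probe sets of both genes did not share these falls. That of Grb10, with a mean signal of 9038, had a log2 fold change of 0.11, and that of Scd2, with a mean signal of 6700, had -0.02. A second brighter probe set of Scd2, with a mean signal of 2746, read 3537 and 3640.1 in the controls and 1668, 1765 and 2455 in the exposed embryos (log2 fold change -0.89, adjusted p = 0.0922, not called), and a dimmer one of Grb10 was at -1.38. Of the 13 called lower probe sets with 1 gene, 12 had other tested probe sets of that gene and 10 had a brighter one, 14 brighter probe sets in all. None of the 14 was called, and all differed less than the called one, with log2 fold changes from -0.89 to 0.11. In 9 of them all 3 exposed embryos still lay below both controls, in 4 the groups overlapped, and in 1, that of Grb10, the exposed embryos lay above. The genes were Grb10, Scd2, Dcx, Vps35, Kif11, Tgfbr1, Gmfb, Nedd4, Ap1g1 and Cdc23. For Nedd4, a ubiquitin ligase, the log2 fold change was -1.27 for the called probe set and 0.00 and -0.53 for the 2 brighter ones, of which the second had all 3 exposed embryos below both controls. For Tgfbr1, a receptor of TGF-beta, the values were -1.90 for the called and -0.20 for the brighter probe set. A dimmer probe set of Tgfbr1 was at -2.30 and a dimmer one of Gmfb at -2.09. In both, all 3 exposed embryos lay below both controls and below the 40th percentile of their array, and neither was called. Different probe sets of a gene can match different transcript ends or isoforms, and their part in the result was not tested. These probe sets were compared for called genes only, which were chosen for a large change.

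**Figure D2:**
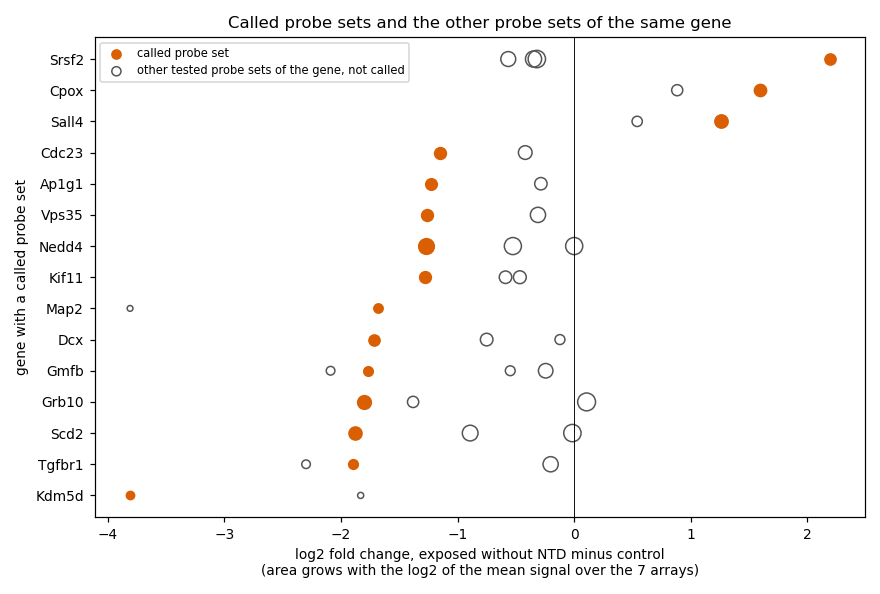
Log2 fold change (exposed without NTD minus control) of the called probe set of each gene, filled, and of the other tested probe sets of the same gene, open, with the area growing with the log2 mean signal. The brightest probe sets of Grb10, Scd2 and Nedd4 lie near 0, while another brighter one lies at -0.89 for Scd2 and at -0.53 for Nedd4, and those of Srsf2 lie on the other side of 0.

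Map2 and Dcx, which encode microtubule-binding proteins of young neurons, were both called lower. Map2 read 359 and 396 in the controls and 104, 128 and 122 in the exposed embryos (log2 fold change -1.68, SE 0.23, adjusted p = 0.0393, and 0.0816 without exposed embryo 1, with a range of 0.0109 to 0.337 over 19 alternative settings). All 3 of these signals lie below the 40th percentile of their array (135 to 146), as do all exposed signals of Kdm5d and of the called probe set of Gmfb, so the size of these folds is uncertain. The only other tested probe set of Map2 read 207 and 283 in the controls and was below that percentile in the exposed embryos too, at 21.1, 16.7 and 14.7. The called probe set of Dcx read 631 and 773 in the controls and 218, 186 and 236 in the exposed embryos (log2 fold change -1.72, SE 0.19, adjusted p = 0.0239), and its brightest probe set read 894 and 914 against 444, 585 and 598 (log2 fold change -0.75, adjusted p = 0.127). The call of Dcx was lost without exposed embryo 1 (adjusted p = 0.0816, with a range of 0.00383 to 0.18 over 18 alternative settings), and the other tested probe set of Dcx had overlapping groups and a log2 fold change of -0.12. Dcx is on the X chromosome, and Map2 is not. The NTD embryos were at 151 and 121 for Map2, beside the exposed embryos without NTD.

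To describe groups of genes, each gene was taken by its brightest tested probe set, which gave 8657 genes. An unadjusted p under 0.05 was found for 666 genes that were higher (7.69%) and 394 that were lower (4.55%). All 3 exposed embryos lay above both controls for 1698 genes (19.6%) and below them for 1233 (14.2%). With exposed embryos 2 and 3 alone, these were 2190 (25.3%) and 1659 (19.2%), and the median log2 fold change of all genes was 0.04 with and without exposed embryo 1. In these whole embryos, fewer cells of a type and less RNA per cell cannot be told apart. None of the counts by list below is a test, and a gene that passed the filter on low signals through one group only had to differ.

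Genes of primitive red blood cells lay above the controls in all 3 exposed embryos with few exceptions. All 18 tested genes had a positive log2 fold change, 15 with an unadjusted p under 0.05, and 17 had every exposed embryo above both controls. None was called. The median log2 fold change was 0.54, and without exposed embryo 1 it was 0.57, with exposed embryos 2 and 3 above both controls for all 18. The summed signal of the list was 59230 and 61368 in the controls and 75205 to 93063 in the exposed embryos.

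The regulators of this list were Klf1, the factor that switches on red cell genes, at 440.2 and 501 in the controls and 600, 744 and 804 in the exposed embryos, and Gata1, at 180 and 246 against 291, 458 and 339. Their log2 fold changes were 0.60 and 0.76. Zfpm1, the partner of Gata1, had a log2 fold change of 0.84 (adjusted p = 0.083). The embryonic beta-like globin Hbb-bh1 was 15748 and 16594 in the controls and 27514, 21030 and 20656 in the exposed embryos, a log2 fold change of 0.50 (adjusted p = 0.181), and Hbb-y and Hba-x had 0.41 and 0.32. Exposed embryo 1 was highest for the globins, but not for Klf1 or Gata1. Heme synthesis lay on the same side, with 10 of 17 tested genes above both controls in all 3 exposed embryos, none below and a median of 0.33 with and without exposed embryo 1. Beside Cpox, which was called, Uros, Alas2 and Fech had log2 fold changes of 0.64, 0.65 and 0.47. Of these, Alas2 is on the X chromosome.

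Glycolysis genes were mostly above the controls, with 14 of 21 above both controls in all 3 exposed embryos, none below and none called. The median log2 fold change was 0.53, or 0.36 without exposed embryo 1. Pfkl, the liver form of phosphofructokinase, was 2098 and 1824 in the controls and 4534, 3391 and 4228 in the exposed embryos, a log2 fold change of 1.04 (SE 0.17, adjusted p = 0.0572). Pklr, Pkm, Tpi1, Ldha and Aldoa had log2 fold changes of 0.86, 0.59, 0.72, 0.68 and 0.93, and in all of these both exposed embryos 2 and 3 lay above the controls. Hk2 was highest in exposed embryo 1, at 2339 against 1469 and 1218 in exposed embryos 2 and 3 and 845 and 1028 in the controls.

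Of the 10 tested glucose and lactate transporters, 8 lay above both controls in all 3 exposed embryos and none below, with a median of 0.38, or 0.32 without exposed embryo 1. Slc2a3, a neuronal and placental glucose transporter, was 1963 and 1810.2 in the controls and 6978, 3176 and 2982 in the exposed embryos. Its 3 other tested probe sets had log2 fold changes from -0.19 to 1.45. Slc2a1, the widespread glucose transporter, was 1805 and 1828 in the controls and 3669, 3732 and 1834 in the exposed embryos, so that exposed embryo 3 was level with the controls by this probe set, while by 2 further probe sets the log2 fold change was 1.05 and 1.20. Slc16a3, given above, was the only gene of the list that was called.

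Hypoxia effectors outside glycolysis had 21 of 33 tested genes above both controls in all 3 exposed embryos and 1 below, and also 21 above and 1 below with exposed embryos 2 and 3 alone. The median log2 fold change was 0.60, or 0.42 without exposed embryo 1, and no gene was called. For 5 of the 33, Car9, Car12, Krt19, Stc2 and Rora, either the controls or the exposed embryos lay below the filter's percentile on every array. These genes could pass the filter only through other embryos, which favoured a difference between the groups. Bnip3, a mitochondrial protein of the hypoxia response, was 1086 and 976 in the controls and 5137, 2645.0 and 2022 in the exposed embryos (log2 fold change 1.55, adjusted p = 0.093, and 1.17 without exposed embryo 1). Ak4 was 603 and 516 in the controls and 998, 1170.1 and 928 in the exposed embryos, and was the one effector named here that was not highest in exposed embryo 1. The 2 other tested probe sets of Ak4 had log2 fold changes of -0.18 and 0.50. Vegfb and Vegfa, vascular growth factors, and P4ha1, a collagen prolyl hydroxylase, had log2 fold changes of 0.99, 1.00 and 1.07. Exposed embryo 1 was the highest of the 7 embryos for 27 of the 33 genes, and for 3382 of all 14554 tested probe sets.

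The HIF subunits and oxygen sensors themselves did not share this position, with 4 of 14 tested genes above both controls, 2 below and a median of 0.06. Hif1a was 2593 and 2316 in the controls and 1711, 2172 and 1995 in the exposed embryos (log2 fold change -0.33), and its other probe sets ran from -1.60 to 0.28. Cited4, a coactivator-binding protein, was the member of smallest p, at 222 and 225 in the controls and 402, 436 and 507 in the exposed embryos (log2 fold change 1.00, adjusted p = 0.0716). Egln3, an oxygen sensor that is itself a hypoxia target, had 0.69.

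**Figure D3:**
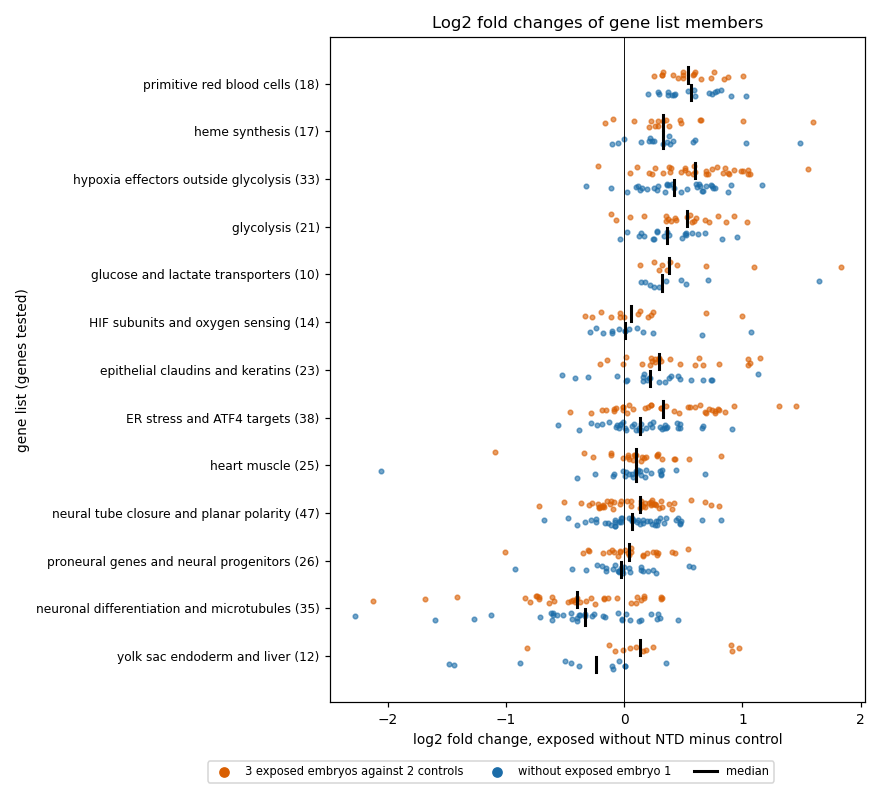
Log2 fold change of each tested member of 13 gene lists, exposed without NTD minus control, with all 3 exposed embryos and without exposed embryo 1, and bars at the medians. Red blood cell, glycolysis and hypoxia members lie mostly above 0 in both, neuronal members mostly below, and the yolk sac median changes sign, from 0.13 to -0.24.

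Genes of neuronal differentiation lay on the low side. Of 35 tested genes, 14 had an unadjusted p under 0.05 downward and none upward, 17 lay below both controls in all 3 exposed embryos and 2 above, and the median log2 fold change was -0.40, or -0.33 without exposed embryo 1. Map2 was the only one called by its brightest probe set. Slc17a6, a glutamate transporter of synaptic vesicles, was 133 and 152 in the controls and 40.2, 43.5 and 19.8 in the exposed embryos, where it lay below the 40th percentile of every array, and it passed the filter through the controls only. Stmn2, a microtubule regulator of growing axons, was 1513 and 1576 against 771, 839 and 1229.5, and Tubb2b, a neuronal tubulin, 2856 and 2487 against 1096, 1873 and 1609.8. The neurofilament gene Nefl and the growth cone gene Gap43 had -0.45 and -0.47, with all 3 exposed embryos below both controls. Ncam1 and Stmn1 were the 2 members above both controls, at 0.31 and 0.17.

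The 26 tested proneural and progenitor genes had a median of 0.04, or -0.02 without exposed embryo 1, with 3 genes above both controls in all 3 exposed embryos and 3 below. Their member of smallest p, Fabp7, a fatty acid binding protein of radial glia, was 2451 and 2483 in the controls and 1080.2, 1332 and 1275 in the exposed embryos (log2 fold change -1.01, adjusted p = 0.0519, not called). Genes of neural tube closure had a median of 0.13 over 47 tested genes, with 9 above and 5 below. Traf6, a signalling adaptor, was 269 and 313 in the controls and 166, 199.9 and 164 in the exposed embryos, while Ptk7, a planar polarity receptor, was 277 and 282 in the controls and 469, 328 and 461 in the exposed embryos. Neural crest genes had a median of 0.17 over 21, and Snai2 was 109 and 129 in the controls and 221, 236 and 184 in the exposed embryos. Heart muscle genes had a median of 0.10 over 25. Hes7, the clock gene of somite formation, was 25.2 and 35.2 in the controls and 120, 201 and 118 in the exposed embryos. Its control signals lie below the 40th percentile, so no fold is given, and those of Snai2 do too. This stands beside a median of 0.16 for the 22 tested genes of the segmentation clock. None of the genes of these lists was called by its brightest probe set.

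**Figure D4:**
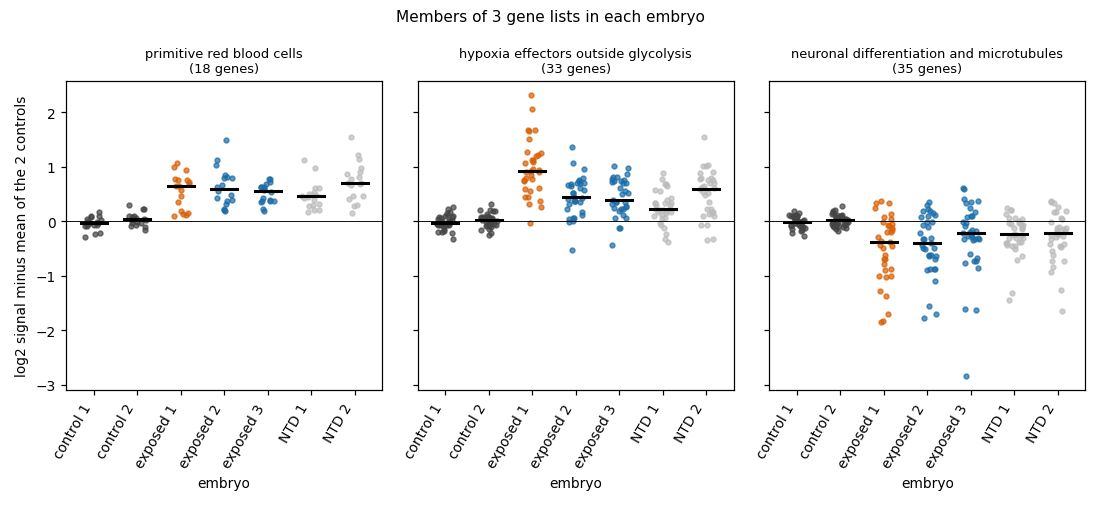
Log2 signal minus the mean of the 2 controls for each tested member of the lists of primitive red blood cells, hypoxia effectors outside glycolysis and neuronal differentiation in each of the 7 embryos, with bars at the medians. The medians of the red blood cell list are 0.65, 0.59 and 0.55 in exposed embryos 1, 2 and 3, while those of the hypoxia list are 0.91, 0.45 and 0.39, so that exposed embryo 1 stands higher there.

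The NTD embryos share the 2 controls with this comparison, and their medians are given side by side only. For primitive red blood cells they were 0.45 and 0.70 in NTD embryos 1 and 2, beside 0.65, 0.59 and 0.55 in the exposed embryos without NTD. For hypoxia effectors they were 0.23 and 0.60, beside 0.91, 0.45 and 0.39, and for neuronal differentiation -0.23 and -0.22, beside -0.38, -0.40 and -0.22. In each of these lists the median of every exposed embryo lay on the same side of the controls.

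Exposed embryo 1 carried transcripts of yolk sac endoderm and liver at higher levels than the other embryos. Of the list's 31 genes, 28 were on the array and 12 passed the filter on low signals. Exposed embryo 1 was the highest of the 7 embryos for 9 of the 12 tested and for 15 of the 16 untested genes, and more than 2-fold above every other embryo for 6 and 13 of them. Over all 14554 tested probe sets it was the highest for 3382 and more than 2-fold above every other embryo for 44. The summed signal of the 12 was 25667 in exposed embryo 1, 3368 and 4426 in exposed embryos 2 and 3, and 5451 to 5692 in the controls. Apoa2 was 2897 in exposed embryo 1 and at most 252 elsewhere. Cubn, a receptor of visceral endoderm for protein uptake, was 1701 in exposed embryo 1 and at most 62.0 in the other 6 embryos, and Apoa1 was 2944 and at most 129. Ahsg, a fetal liver protein, was at 6.84 in exposed embryo 1 and at most 33.3 elsewhere. None of the 12 tested genes was called, while Cubn, Apoa1 and Ahsg did not pass the filter and so could not be.

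Without exposed embryo 1 the direction of the yolk sac list turned, with a median log2 fold change of -0.24 in place of 0.13. Exposed embryos 2 and 3 lay below both controls for 6 of the 12 tested genes and above for none. Afp was 1629 and 1449 in the controls and 9606, 285 and 1122 in exposed embryos 1, 2 and 3, and Ttr 488 and 446 against 3568, 152 and 183. Alb was below both controls in all 3, at 226, 161 and 243 against 314 and 426 (log2 fold change -0.82, adjusted p = 0.191). The means of Afp and Ttr over the group, with log2 fold changes of -0.08 and -0.01, therefore stood for no single exposed embryo.

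**Figure D5:**
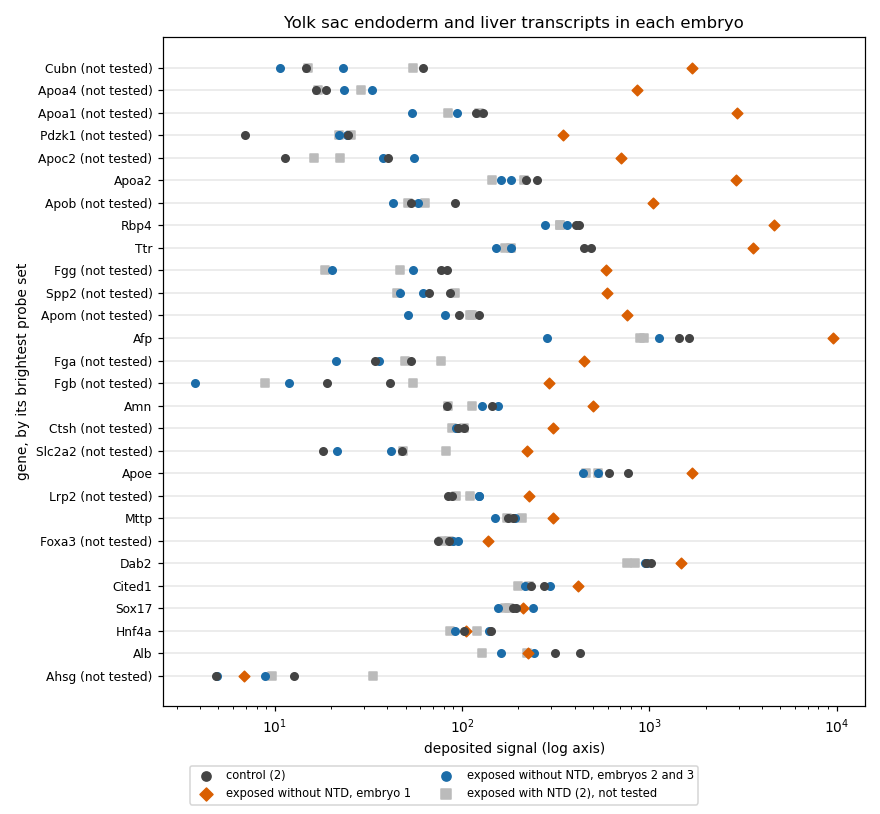
Deposited signals (log axis) of 28 yolk sac endoderm and liver genes on the array in each embryo, in order of the signal of exposed embryo 1 over the highest other embryo. The diamonds of exposed embryo 1 lie to the right of all others for 24 of the 28 genes, and circles of exposed embryos 2 and 3 mostly lie among or left of the controls.

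Other genes were also high in exposed embryo 1 alone. It was more than 2-fold above every other embryo for 44 tested probe sets, and no other embryo was so for more than 2. Rhox5, a homeobox gene of trophoblast and extraembryonic tissue, was 989 in it and 86.4 to 145 in the other 6 embryos. The 5 tested trophoblast and placenta genes summed to 4718 in exposed embryo 1, 3214 and 2597 in exposed embryos 2 and 3, and 1927 and 1953 in the controls, and their median log2 fold change was 0.82, or 0.58 without exposed embryo 1. Those include Krt8, Krt18 and Hand1, which the embryo also expresses. Of 14 trophoblast genes that were not tested, exposed embryo 1 was highest for 9 and more than 2-fold above all others for 2, Phlda2, an imprinted placental gene, at 444 against at most 85.3, and Rhox6, at 88.8 against at most 37.2. Tpbpa, a defining marker of spongiotrophoblast, was at 35.3 in exposed embryo 1 and at most 40.1 elsewhere. Of 9 tested decidua genes, exposed embryo 1 was highest for 3, lowest for 2 and more than 2-fold above all others for none. Their median log2 fold change was 0.27, or 0.23 without exposed embryo 1. Of 5 decidua genes that were not tested, exposed embryo 1 was highest for 4 and more than 2-fold above all others for 2. One was Igfbp1, which liver and yolk sac also make, at 1190.4 against at most 48.2. The other was the decidual prolactin-family gene Prl8a2, at 391 against at most 117.

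Targets of ATF4, the factor of the amino acid and unfolded protein response, were another such group. Exposed embryo 1 was the highest of the 7 for 22 of 38 tested genes of ER stress and ATF4, and more than 2-fold above all others for 8. It was also the highest for 3382 of all 14554 tested probe sets, and for 31 of 41 cytosolic ribosomal protein genes. Chac1 was 114 and 168 in the controls and 1340, 191 and 156 in the exposed embryos, and Mthfd2, a mitochondrial folate enzyme, 625 and 702 against 2412, 701 and 761. The median of the list was 0.33 with all 3 exposed embryos and 0.13 without the first. Epithelial claudins and keratins had 10 of 23 tested genes above both controls in all 3 exposed embryos and none below, with a median of 0.30, or 0.22 without exposed embryo 1. For 5 of the 23, Cldn2, Cldn13, Cldn15, Krt19 and Spint1, either the controls or the exposed embryos lay below the filter's percentile on every array. These genes could pass the filter only through other embryos, which favoured a difference between the groups. Among the 23, Cldn3 was at 204 and 207 in the controls and 463, 360 and 566 in the exposed embryos (log2 fold change 1.15, adjusted p = 0.0778), so exposed embryo 3 was highest, while Krt18 was 639 and 518 against 1842, 937 and 972. The part of yolk sac, trophoblast or decidual tissue in these values of exposed embryo 1 was not tested.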

How the data were processed

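The 5 arrays compared are 1-colour Affymetrix 430A 2.0 arrays of single E10.5 embryos. Each deposited value is a linear intensity, a MAS5 signal that the authors scaled to the same trimmed mean on each array. MAS5 is named in the submitters' processing notes, and its version was not given in the sources used here. After 64 control probe sets were set aside, the array annotation gave 1 symbol for 20393 probe sets, several for 691 and none for 1606.

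Signals below 1 were set to 1 and log2 was taken, with no further normalization. Exposed embryos without NTD and controls were compared by limma 3.58.1 in R 4.3.3 (lmFit, eBayes with trend, two-sided), over 14554 probe sets, without the NTD arrays. Fold changes are differences of mean log2 signals unless a fold of mean signals is named. The test was tried on simulated data. The members, the gene lists and the rule for naming genes were chosen with earlier results of these data known. The rule took all called probe sets, up to 4 members of smallest p per list, the probe sets in which exposed embryo 1 stood furthest from the rest, sex-linked genes and 14 genes by name. Ahsg, Apoa1, Cubn, Ncam1, Stmn1, Igfbp1, Tpbpa, Phlda2, Rhox6, Prl8a2 and members beyond the first 4 of a list were chosen after their values were seen. There were 36 lists. The lists of macrophages, endothelium, somite muscle, iron uptake, p53 targets, immediate early genes, kinesins and mitosis, DNA replication, cytosolic and mitochondrial ribosomal proteins, oxidative phosphorylation, chromatin remodellers, splicing factors, matrix, Wnt, TGF-beta and BMP, stem-cell regulators and sterol synthesis had median log2 fold changes between -0.12 and 0.17.

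Alternatives were quantile normalization, median centring, other floors and filters, an offset of 50, no trend, a robust fit, array quality weights, all 7 arrays in 3 groups, the replicate number as a block, no X and Y probe sets, each embryo left out, the methods' t-test and an approximation of the study's criteria. Promoter sequences are from RefSeq (GRCm38.p6), and 7029 of 8657 genes had one. Figures were drawn with Matplotlib 3.10.9 in Python 3.11.15, and tables were handled with NumPy 2.4.6 and pandas 2.3.3. SciPy 1.17.1 and statmod 1.5.0 were also used.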

Additional observations from a re-analysis of the deposited data

How the results depend on the processing

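All 24 called probe sets kept their direction under every setting that fitted them, and of 3153 named values computed again none that was called in either fit changed sign. Their number did not hold. The calls, with those higher and lower after each total, came to 8, 5 and 3 with quantile normalization, 46, 17 and 29 with a floor of 64, 59, 19 and 40 with an offset of 50, and 11, 5 and 6 with no filter. There were 221, 79 and 142 with array quality weights, 43, 19 and 24 with all 7 arrays in 3 groups, and 6, 4 and 2 without chromosomes X and Y. With no trend 37 were called, 29 of them lower, and with a robust fit 37, 16 of them higher. Leaving out 1 embryo at a time gave 2 to 67 calls, 2 to 22 higher and 0 to 45 lower. The methods' t-test passed 1410 probe sets unadjusted and 0 after Benjamini-Hochberg adjustment. An approximation of the study's criteria took 156, among them 23 of the 24. It asked for an unadjusted p under 0.05 in a Welch t-test and in a Cyber-T style test, and for a difference beyond 2-fold. The paper's false discovery rate and detection flags were not applied. Without exposed embryo 1, a fit of 6 arrays in 3 groups, chosen after seeing the data, called 0 where the fit of 4 arrays called 6, while 963 were higher and 1138 lower at an unadjusted p under 0.05.

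With the replicate number as a block 167 probe sets were called, 63 higher and 104 lower. The numbers are not stated to pair embryos, and the deviations of controls and exposed embryos with the same number correlated at -0.11 and -0.05, so the block has no basis in the design. Median centring, a floor of 16, a filter over the 5 arrays and a filter at the 60th percentile left the number of calls within 1.5 times. Of 144 list medians computed again, 14 moved by more than 1 SD. The cause of these moves was not tested. Signals near the filter carry the least information, since a MAS5 signal there is close to background.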
